A study of Mus musculus with 18 samples.

Results

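The Kruppel-like factors (KLFs) are zinc finger transcription factors that bind GC-rich and CACCC sequences, and the 8 described here are Klf2, Klf3, Klf4, Klf6, Klf7, Klf9, Klf10 and Klf13. They were chosen by name and make up 8 of the 37991 gene rows of the RNA-seq counts. All 8 passed the filter on low counts (a mean of 3 or more normalized counts in any group), as 17240 genes did in all. RNA was sequenced from splenic CD4+ T cells of Tg4-H2u mice, male and female and 6 to 12 weeks old, in 18 libraries that form 6 groups of 3 biological replicates. Every mouse carried a transgenic TCR against the N-terminal peptide of myelin basic protein. The CD4+ T cell repertoire of all groups is therefore skewed and represents no normal repertoire. Tolerized cells (T) came from mice given 7 escalating subcutaneous doses of the high-affinity peptide MBP Ac1-9[4Y]. Naive cells (N), which the authors call predominantly naive, came from mice given PBS on the same schedule. N0 and T0 were taken 2 h after a last injection of PBS, and NAg and TAg 2 h after 80 µg of the peptide. NPI and TPI were cultured for 2 h with 20 ng/ml of the phorbol ester PMA and 2 µM of the calcium ionophore A23187 (PI), which bypass the TCR. No library of cells cultured without PI was used, so PI and culture cannot be told apart.

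In resting T cells, KLFs are best known for keeping the cell quiescent and in circulation. Klf2, the most studied of them, activates the gene of the sphingosine 1-phosphate receptor (S1pr1), and it is switched off when the TCR is engaged. Other members repress transcription by recruiting the corepressors CtBP (Klf3) or Sin3 (Klf9, Klf10 and Klf13), and several are early response genes in other cell types.

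In the annotation of the build to which the reads were aligned (NCBIM37, mm9), all 8 are protein-coding genes. Klf2 (ENSMUSG00000055148) lies at chr8:74842932-74845555, Klf3 (ENSMUSG00000029178) at chr5:65194628-65221368, Klf6 (ENSMUSG00000000078) at chr13:5860735-5869639 and Klf9 (ENSMUSG00000033863) at chr19:23215716-23241401, all on the plus strand. Klf4 (ENSMUSG00000003032) lies at chr4:55540013-55545347, Klf7 (ENSMUSG00000025959) at chr1:64076021-64168856, Klf10 (ENSMUSG00000037465) at chr15:38221219-38230464 and Klf13 (ENSMUSG00000052040) at chr7:71031237-71083801, all on the minus strand. Exons of Klf7 share 3196 bases with Gm17427 on the opposite strand, which was counted at 0 to 2 reads in every library, and no other member overlaps an exon of a second gene except for Gm13748, also at Klf7, at 0 to 1 reads.

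The promoters of 4 members are shown because these genes stand for the response patterns in the counts, Klf2 for a fall after peptide, Klf4 and Klf6 for a rise after PI and Klf9 for a rise after both. Each is the 250 bases before the RefSeq start of the gene, in build GRCm38.p6, which is not the build of the counts, and 7 of the 8 members were in that RefSeq table (all but Klf10). Letters in capitals mark matches to a MEF2 site (Klf2), an E-box CACGTG (Klf4 and Klf6), the NFAT core TGGAAA (Klf6), a forkhead site GTAAACA and an AP-1 site TGANTCA (both Klf9), found on either strand.
Klf2, chr8:72318812-72319061, plus strand: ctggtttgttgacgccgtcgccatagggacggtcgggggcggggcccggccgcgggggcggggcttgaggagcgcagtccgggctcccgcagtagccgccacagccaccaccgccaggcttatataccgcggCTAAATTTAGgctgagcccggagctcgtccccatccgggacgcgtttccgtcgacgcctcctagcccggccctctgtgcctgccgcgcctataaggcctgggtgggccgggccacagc
Klf4, chr4:55532476-55532725, minus strand: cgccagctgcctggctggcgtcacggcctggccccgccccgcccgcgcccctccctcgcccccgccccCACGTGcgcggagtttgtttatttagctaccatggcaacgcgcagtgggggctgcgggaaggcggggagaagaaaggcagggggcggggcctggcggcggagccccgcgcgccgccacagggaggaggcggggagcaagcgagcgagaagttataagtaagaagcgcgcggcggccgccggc
Klf6, chr13:5861239-5861488, plus strand: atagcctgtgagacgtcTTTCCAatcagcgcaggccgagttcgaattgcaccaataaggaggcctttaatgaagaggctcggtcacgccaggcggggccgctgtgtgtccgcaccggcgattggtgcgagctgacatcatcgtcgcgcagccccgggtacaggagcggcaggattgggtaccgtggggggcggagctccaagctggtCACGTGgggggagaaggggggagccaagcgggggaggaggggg
Klf9, chr19:23140976-23141225, plus strand: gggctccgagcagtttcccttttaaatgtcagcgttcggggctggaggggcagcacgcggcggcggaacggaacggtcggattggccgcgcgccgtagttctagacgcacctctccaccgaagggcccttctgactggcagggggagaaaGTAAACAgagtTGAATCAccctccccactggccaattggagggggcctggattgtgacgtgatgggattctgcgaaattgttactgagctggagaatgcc

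The MEF2 site of Klf2, searched for by its consensus, began 118 bases before the start, and 0.508% of the 32851 windows of this length in the table held one. Klf9 held its forkhead site 100 bases and its AP-1 site 89 bases before the start, without overlap, where 3.17% and 6.75% of windows held such a site. The E-box began 182 bases before the start of Klf4 and 43 bases before that of Klf6, with one in 6.02% of windows, and the NFAT core of Klf6 began 233 bases before it, with one in 18.6%. GC boxes, GGGCGGG on either strand and not capitalized here, were present in Klf2 (2 sites), Klf3 (4), Klf4 (4) and Klf13 (2), and in 23.4% of windows. A CRE (TGACGTCA, 1.55% of windows), a CACCC box (CCACACCC, 3.20%), an EGR site (GCGTGGGCG, 0.536%) and a CArG box, searched for by its consensus (1.47%), were not found in any of the 7 windows. Klf7 held no searched motif. These are matches of letters in a window, and no binding was measured.

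Total counts were 10758571 to 13559974 in the 12 libraries without PI and at least 14895843 in those with PI, up to 24119489. The deposited raw counts were divided by library sizes scaled with the TMM method, which gives the normalized counts below. Differences were tested with edgeR's quasi-likelihood test across all tested genes, with Benjamini-Hochberg adjustment, and passing means an adjusted p under 0.05. Log2 fold changes (log2FC) are given with their standard error (SE), where a positive value means higher in the group named first. CD4 T cell markers were detected in every library, and none of the 8 was at 0 in any group. Their normalized counts differed between conditions, and summed to 30900 to 32162 in N0, 23852 to 25913 in NAg and 55921 to 61618 in NPI. In tolerized cells they summed to 26840 to 32528 in T0, 25907 to 30078 in TAg and 67983 to 72174 in TPI. The normalized counts of 17 myeloid markers summed to 826 to 988 in N0 and 3401 to 5187 in T0, to 829 to 2323 in NAg and 3420 to 5461 in TAg, and to 502 to 828 in NPI and 1174 to 1572 in TPI. Y-linked genes summed to more than 1000 reads in all 3 libraries of NPI and of TPI, in 2 of T0 and in 1 of TAg. They summed to 8 to 15 reads in N0 and 4 to 13 in NAg, so that sex and PI changed together in the naive cells, and in part in the tolerized cells. Sex also differed in part between the cell states at rest and after peptide.

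At rest, 3 members made up most of the KLF transcripts. Per length of exons (RPKM), the level in N0 was 132 ± 14.6 for Klf2 (SD, n = 3), 95.8 for Klf13 and 62.3 for Klf6, followed by 58.0 for Klf3 and 14.8 for Klf7. Klf10 (4.56), Klf4 (2.04) and Klf9 (1.02) were the lowest. The RPKM of the 8 genes summed to 370.8 ± 8.40 in N0 and 338.8 ± 45.5 in T0. After peptide the sum was 132.4 ± 11.4 in NAg and 159.4 ± 5.28 in TAg, and after PI it was 887.1 ± 51.4 in NPI and 795 ± 41.3 in TPI. The libraries of the 3 conditions did not overlap within either cell state. Between the cell states the sums after PI overlapped, at 828.2 to 922.5 in NPI and 757.2 to 839.1 in TPI. Not divided by length, the mean summed normalized counts had the reverse order, 42274 in NPI and 44402 in TPI. In bulk samples, fewer cells of a type and less RNA per cell cannot be told apart.

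**Figure D1:**
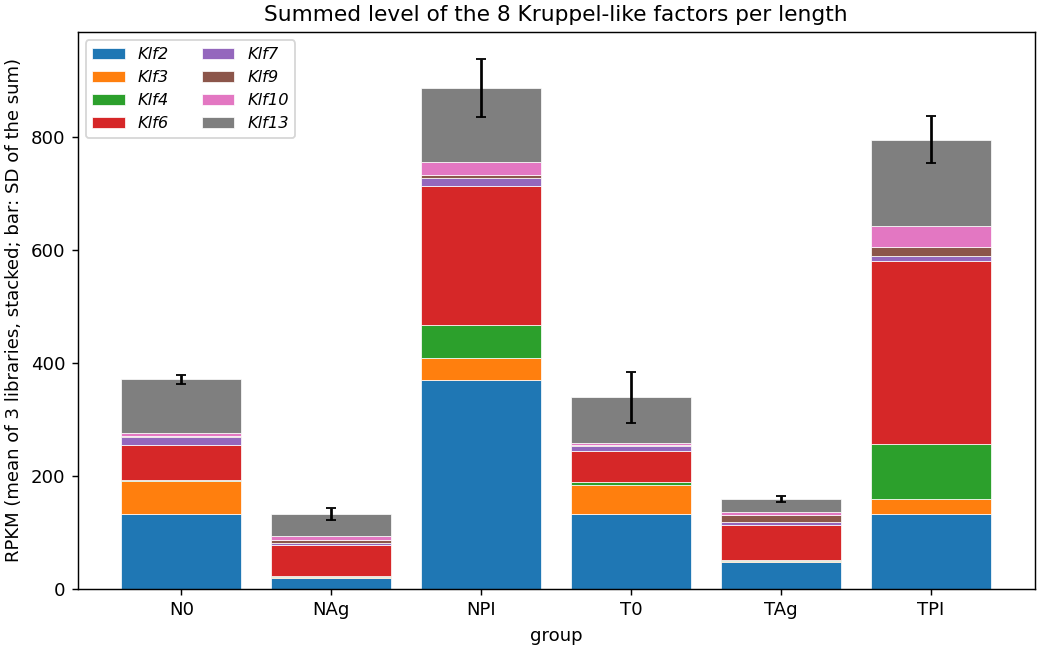
Stacked bars of the mean RPKM of the 8 KLF genes in each group (n = 3 libraries), with the SD of the sum. The mean sum was lowest in NAg (132.4) and highest in NPI (887.1), where the libraries overlapped those of TPI. Klf6 held the largest share in NAg, TAg and TPI.

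The makeup of this sum differed between conditions. Klf2 held 35.8% of it in N0, 14.2% in NAg and 41.6% in NPI, and in tolerized cells 38.6%, 29.2% and 16.7%. Klf6 held 16.8% in N0 and 16.2% in T0, 41.4% in NAg and 38.6% in TAg, and 27.7% in NPI and 40.8% in TPI. Klf3 held 15.6% in N0 and 1.69% in NAg, and 15.4% in T0 and 1.79% in TAg. Klf4, at 0.552% in N0, held 6.60% in NPI and 12.3% in TPI. Klf9 held 0.276% in N0 and 7.88% in TAg. These shares are descriptions, with no test.

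Peptide in vivo lowered most of the members that moved. In naive cells (NAg:N0) 4 of 8 were lower and 1 was higher, where 33.4% of all tested genes were lower and 32.1% higher. In tolerized cells (TAg:T0) 5 were lower and 1 higher, against 29.8% and 29.9% of all genes. Klf2, Klf3, Klf7 and Klf13 were lower in both cell states and Klf9 was higher in both, while Klf4 passed only in the tolerized cells, and the test of that difference did not pass. The median log2FC of the members was −0.78 in NAg:N0 and −0.89 in TAg:T0, beside 0.00 and −0.05 over all tested genes.

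PI in culture moved them mostly upward. In NPI:N0 6 of 8 were higher and 1 was lower, beside 28.6% and 32.7% of all tested genes, and in TPI:T0 5 were higher and 1 lower, beside 32.0% and 36.3%. Klf4, Klf6, Klf9, Klf10 and Klf13 were higher in both cell states, and Klf3 was lower in both. The median log2FC was 1.73 and 1.75, beside −0.06 and −0.10 over all genes. Of the 17 myeloid markers, 10 were lower in NPI:N0 and 11 in TPI:T0, and their part in the KLF changes was not tested beyond a fit with marker scores as covariates, described with the differences between the cell states.

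Between tolerized and naive cells, 2 members were higher and 2 lower at rest (T0:N0), beside 8.42% and 12% of all genes. After peptide (TAg:NAg) 3 were higher and 1 was lower, beside 20.9% and 18.5%. After PI (TPI:NPI) all 8 passed, 5 higher and 3 lower, beside 18.2% and 19.7%. The response to peptide was more positive in tolerized cells for 2 members and more negative for 1 by the interaction test, beside 14.6% and 7.09% of all genes, and the response to PI for 3 and 1, beside 12.7% and 7.52%.

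**Figure D2:**
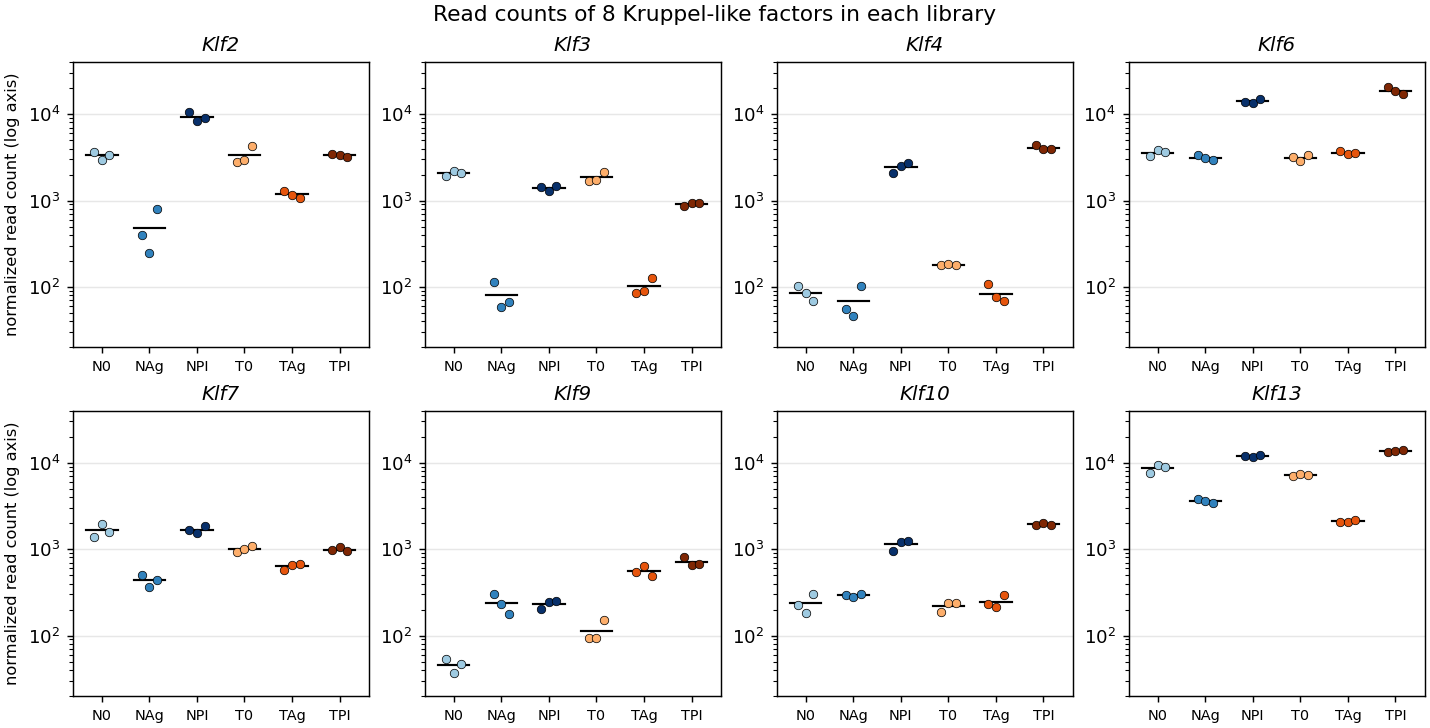
Normalized read counts on a log axis for each of the 8 KLF genes in the 6 groups, with 1 point per library and a line at the mean of 3. Klf2 was lowest in NAg (248 to 808), Klf3 fell to 58.7 to 128 in both peptide groups, and Klf4, Klf6 and Klf10 were highest in the 2 PI groups.

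Klf2, the quiescence and homing factor, had mean normalized counts of 3339 in N0 and 3332 in T0, and it differed between the cell states after either stimulus. Its normalized counts were 3687, 2953 and 3378 in N0 and 2766, 2951 and 4280 in T0. After peptide they were 400, 248 and 808 in NAg and 1294, 1161 and 1075 in TAg, and after PI 10619, 8294 and 9077 in NPI and 3501, 3377 and 3151 in TPI. The N0, T0 and TPI libraries overlapped, all NAg libraries lay below all TAg libraries, and all NPI libraries lay above every other. Klf2 fell after peptide by a log2FC of −2.78 (SE 0.32, adjusted p = 4.04e-06) in naive and −1.50 (SE 0.30, adjusted p = 0.000691) in tolerized cells, 6.85-fold and 2.83-fold. It rose 2.79-fold with PI in naive cells (log2FC 1.48, SE 0.29, adjusted p = 0.000649), whereas in tolerized cells the log2FC was 0.00 (95% interval −0.62 to 0.63, adjusted p = 0.989).

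At rest the log2FC of Klf2 between tolerized and naive cells was 0.00 with a 95% interval of −0.63 to 0.63, so that differences within these bounds could not be told from 0. After peptide Klf2 was 2.41-fold higher in tolerized cells (log2FC 1.27, SE 0.32, adjusted p = 0.00647) and after PI 2.79-fold lower (log2FC −1.48, SE 0.29, adjusted p = 0.00134). The call after peptide was lost when only these 2 groups were fitted (log2FC 1.29, adjusted p = 0.0941). The difference between the PI responses was −1.48 (SE 0.41, adjusted p = 0.0225), which no longer passed without N0 replicate 2 (−1.38, adjusted p = 0.0551), NPI replicate 1 (−1.37, adjusted p = 0.0519) or T0 replicate 3 (−1.24, adjusted p = 0.0506). With scores of the erythroid and myeloid markers in the model it did not pass either (−1.30, SE 0.59, adjusted p = 0.204). The difference between the peptide responses was 1.27 (SE 0.43, adjusted p = 0.0522) and did not pass. NAg replicate 3 was the library with 808 counts of Klf2, and without it this difference was 1.86 (adjusted p = 0.000645), while without T0 replicate 3 it was 1.52 (adjusted p = 0.0246). The myeloid marker sum of NAg replicate 3 was 1055, against 2323 and 829 in the other two, and its B cell marker sum was 1327, against 784 and 377. The part of those cells in the Klf2 value was not tested.

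Klf3, a repressor that works through CtBP, showed the deepest fall of the 8 after peptide. Its normalized counts were 1934, 2196 and 2077 in N0 against 115, 58.7 and 67.1 in NAg, and 1695, 1751 and 2133 in T0 against 85.9, 90.6 and 128 in TAg. Every peptide library lay at or below 128, and every resting one at or above 1695. The fall was 25.8-fold in naive (log2FC −4.69, SE 0.18, adjusted p = 8.57e-14) and 18.2-fold in tolerized cells (log2FC −4.19, SE 0.17, adjusted p = 3.99e-13). The falls differed by 0.51 (SE 0.25, adjusted p = 0.179), which passed without NAg replicate 1 (0.85, adjusted p = 0.0042), the NAg library with the most Klf3 and the highest myeloid marker sum (2323, against 829 and 1055).

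With PI the same gene fell far less. The counts of Klf3 were 1434, 1296 and 1473 in NPI and 876, 926 and 946 in TPI, below the resting libraries and without overlap between the cell states. The log2FC was −0.56 (SE 0.14, adjusted p = 0.00167) in naive and −1.02 (SE 0.14, adjusted p = 3.71e-06) in tolerized cells. Klf3 did not pass at rest (log2FC −0.15, 95% interval −0.44 to 0.13, adjusted p = 0.472) or after peptide (0.35, interval −0.10 to 0.80, adjusted p = 0.21), and it passed after peptide without NAg replicate 1 (0.70, adjusted p = 0.00363). After PI it was lower in tolerized cells by a log2FC of −0.61 (SE 0.14, adjusted p = 0.00181). The naive PI call was lost with a term for Y-linked reads (log2FC −0.50, SE 0.22, adjusted p = 0.0679). Sex and PI changed together in the naive libraries, so they cannot be told apart there. With scores of the erythroid and myeloid markers in the model both PI calls of Klf3 were lost, at −0.15 (adjusted p = 0.679) in naive and −0.30 (adjusted p = 0.645) in tolerized cells.

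Klf7, a close relative of Klf6 known from neurons, was lower in tolerized than in naive cells at rest and higher after peptide. Its counts were 1398, 1950 and 1588 in N0 and 919, 1004 and 1086 in T0, then 506, 364 and 442 in NAg and 579, 647 and 674 in TAg. In N0 every library lay above every T0 library, and in NAg every library lay below every TAg library. The log2FC between tolerized and naive cells was −0.71 at rest (SE 0.12, adjusted p = 0.000199) and 0.54 after peptide (SE 0.12, adjusted p = 0.00184). The fall after peptide was 3.76-fold in naive (log2FC −1.91, SE 0.12, adjusted p = 1.26e-11) and 1.58-fold in tolerized cells (−0.66, SE 0.12, adjusted p = 5.85e-05). The interaction was 1.25 (SE 0.17, adjusted p = 2.12e-05), and it passed with each of the 12 libraries left out in turn (1.13 to 1.37).

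Klf7 was the only member that did not pass after PI in either cell state. Its counts were 1676, 1531 and 1843 in NPI and 965, 1054 and 947 in TPI, overlapping N0 and T0. The log2FC was 0.03 (95% interval −0.20 to 0.27, adjusted p = 0.814) and −0.02 (interval −0.26 to 0.22, adjusted p = 0.877), and the gap between tolerized and naive cells after PI was −0.77 (SE 0.12, adjusted p = 2.16e-05).

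Klf13, first described as a factor that activates the chemokine gene Ccl5 in activated T cells, was among the 3 members highest per length in every group. Its counts were 7571, 9485 and 8839 in N0, 3780, 3560 and 3434 in NAg and 11836, 11732 and 12184 in NPI. In tolerized cells they were 6948, 7424 and 7270 in T0, 2084, 2057 and 2179 in TAg and 13339, 13696 and 14023 in TPI. The 3 libraries of each group lay apart from those of all other groups. Klf13 fell after peptide 2.40-fold in naive (log2FC −1.27, SE 0.07, adjusted p = 1.12e-13) and 3.42-fold in tolerized cells (−1.78, SE 0.08, adjusted p = 4.08e-16).

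With PI Klf13 rose 1.38-fold in naive (log2FC 0.47, SE 0.07, adjusted p = 5.11e-06) and 1.90-fold in tolerized cells (0.92, SE 0.07, adjusted p = 5.01e-11). Both responses were larger in tolerized cells, with an interaction of −0.51 for peptide (SE 0.10, adjusted p = 0.000797) and 0.46 for PI (SE 0.10, adjusted p = 0.00209). Between tolerized and naive cells the log2FC was −0.26 (SE 0.07, adjusted p = 0.0131) at rest, −0.77 (SE 0.07, adjusted p = 2.26e-08) after peptide and 0.20 (SE 0.07, adjusted p = 0.0316) after PI. The call at rest was lost without N0 replicate 2 (log2FC −0.19, adjusted p = 0.102), N0 replicate 3 (adjusted p = 0.0503) or T0 replicate 1 (adjusted p = 0.0594). The call after PI was lost without any 1 of 5 libraries, all but TPI replicate 1, with an adjusted p of up to 0.0937.

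**Figure D3:**
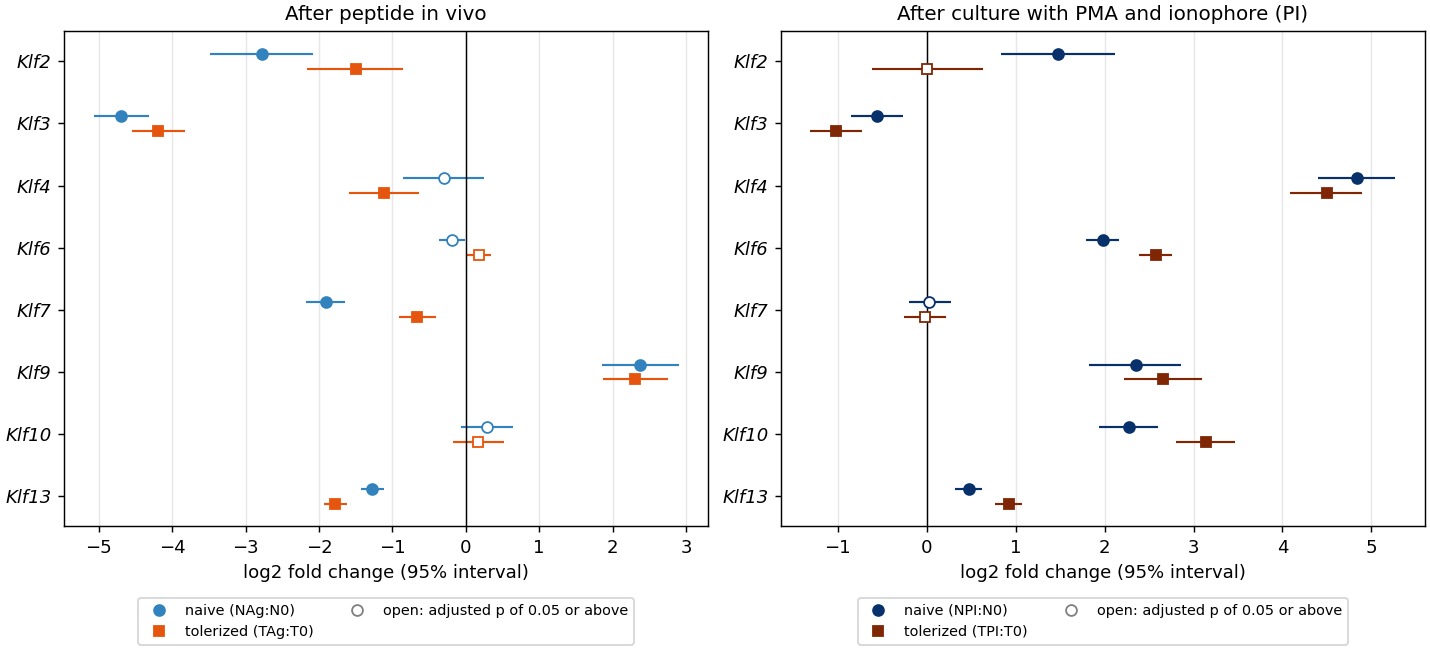
Log2 fold changes of the 8 KLF genes after peptide in vivo (left) and after PI in culture (right), in naive (circles) and tolerized (squares) cells, with 95% intervals and open symbols where the adjusted p was 0.05 or above. Klf2, Klf3, Klf7 and Klf13 lie below 0 on the left in both cell states, and Klf4, Klf6, Klf9, Klf10 and Klf13 lie above 0 on the right.

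Klf4, a pluripotency factor that restrains proliferation of T cells and is also expressed in myeloid cells, was among the 3 lowest of the 8 genes at rest, per length, and rose the most of them with PI. Its counts were 102, 84.6 and 69.4 in N0 against 2086, 2490 and 2745 in NPI, and 179, 185 and 180 in T0 against 4372, 3993 and 3912 in TPI. Every PI library lay far above the resting ones of its cell state, without overlap. The rise was 28.6-fold in naive (log2FC 4.84, SE 0.20, adjusted p = 1.03e-11) and 22.6-fold in tolerized cells (4.50, SE 0.19, adjusted p = 5.62e-12), with a difference of −0.34 (95% interval −0.92 to 0.24, adjusted p = 0.437).

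After peptide the counts of Klf4 were 56.3, 45.8 and 103 in NAg and 107, 76.3 and 68.6 in TAg. The NAg libraries overlapped N0 (log2FC −0.30, adjusted p = 0.319), with a fall that passed without NAg replicate 3 (−0.73, adjusted p = 0.00549), and all TAg libraries lay below T0 (log2FC −1.11, SE 0.22, adjusted p = 0.000441). The responses differed by −0.81 (SE 0.34, adjusted p = 0.117), which passed without NAg replicate 2 (−1.03, adjusted p = 0.0341) or TAg replicate 1 (−1.03, adjusted p = 0.0483). Klf4 was 2.12-fold higher in T0 than N0 (log2FC 1.09, SE 0.22, adjusted p = 0.00276), where 11 of the 17 myeloid markers were higher as well. It was 1.68-fold higher in TPI than NPI (log2FC 0.75, SE 0.16, adjusted p = 0.00135), where 8 of the 17 were higher. After peptide it did not pass (0.28, 95% interval −0.28 to 0.84, adjusted p = 0.438), where 11 were higher and 4 lower, but it did without NAg replicate 3 (0.71, adjusted p = 0.015).

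Klf6, an early response gene in many cell types, was highly expressed at rest and was the most abundant KLF in TPI. Its counts were 3249, 3830 and 3685 in N0, 3404, 3069 and 2954 in NAg, 3176, 2851 and 3389 in T0 and 3701, 3431 and 3509 in TAg. With PI they were 13953, 13292 and 15121 in NPI and 20748, 18361 and 17065 in TPI, all far above the libraries without PI. Klf6 rose 3.94-fold in naive (log2FC 1.98, SE 0.09, adjusted p = 2.42e-15) and 5.97-fold in tolerized cells (2.58, SE 0.09, adjusted p = 1.19e-17), with an interaction of 0.60 (SE 0.12, adjusted p = 0.000819). It was 1.33-fold higher in TPI than NPI (log2FC 0.41, SE 0.09, adjusted p = 0.000463).

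Klf6 did not pass after peptide, with a log2FC of −0.19 (SE 0.09, adjusted p = 0.0552) in naive and 0.18 (SE 0.09, adjusted p = 0.0825) in tolerized cells. The naive value passed without N0 replicate 1 (−0.31, adjusted p = 0.00404), N0 replicate 3 (−0.22, adjusted p = 0.0479) or NAg replicate 1 (−0.25, adjusted p = 0.0185). The responses differed by 0.37 (SE 0.12, adjusted p = 0.0323), and this call was lost without any 1 of 5 libraries, N0 replicate 2, NAg replicate 2, NAg replicate 3, T0 replicate 2 or TAg replicate 1 (adjusted p = 0.0586 to 0.0828). It was also lost with the marker scores in the model (0.36, SE 0.16, adjusted p = 0.128). Between tolerized and naive cells Klf6 did not pass at rest (log2FC −0.19, SE 0.09, adjusted p = 0.12), except without N0 replicate 1 (−0.26, adjusted p = 0.0356) or T0 replicate 3 (−0.26, adjusted p = 0.0377). After peptide it did not pass either (0.18, SE 0.09, adjusted p = 0.115), except without NAg replicate 1 (0.24, adjusted p = 0.0391).

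Klf10, known as TGF-β inducible early gene, passed after PI and not after peptide in both cell states. Its counts were 225, 183 and 306 in N0, 292, 281 and 301 in NAg, 188, 237 and 238 in T0 and 229, 215 and 298 in TAg, which overlap. With PI they were 963, 1225 and 1253 in NPI and 1891, 2012 and 1916 in TPI. The rise was 4.81-fold in naive (log2FC 2.27, SE 0.16, adjusted p = 7.09e-10) and 8.79-fold in tolerized cells (3.14, SE 0.16, adjusted p = 5.6e-12), and the interaction of 0.87 (SE 0.22, adjusted p = 0.00832) passed with each of 12 libraries left out in turn, and no longer with the marker scores in the model (0.97, SE 0.30, adjusted p = 0.0515). Peptide gave a log2FC of 0.29 (95% interval −0.06 to 0.64, adjusted p = 0.132) and 0.17 (interval −0.18 to 0.52, adjusted p = 0.405), and the naive value passed without N0 replicate 3 (0.46, adjusted p = 0.00954). Klf10 differed between the cell states after PI (log2FC 0.76, SE 0.14, adjusted p = 0.000347), and not at a passing level at rest (−0.11, adjusted p = 0.698) or after peptide (−0.23, adjusted p = 0.289).

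Klf9, a repressor and a direct target of the glucocorticoid receptor, was the lowest of the 8 in N0 and the only one to rise with both stimuli. Its counts were 53.5, 36.5 and 46.6 in N0, 304, 234 and 176 in NAg and 201, 244 and 252 in NPI. In tolerized cells they were 93.8, 92.7 and 152 in T0, 546, 646 and 487 in TAg and 810, 649 and 678 in TPI. Within each condition every tolerized library was above every naive one. Peptide raised Klf9 5.19-fold in naive (log2FC 2.38, SE 0.24, adjusted p = 1.55e-07) and 4.96-fold in tolerized cells (2.31, SE 0.21, adjusted p = 3.53e-08), with a difference of −0.07 (95% interval −0.74 to 0.61, adjusted p = 0.925).

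PI raised Klf9 5.08-fold in naive (log2FC 2.35, SE 0.24, adjusted p = 2.47e-07) and 6.33-fold in tolerized cells (2.66, SE 0.21, adjusted p = 4.55e-09), with a difference of 0.31 (95% interval −0.38 to 1.01, adjusted p = 0.568). Klf9 was 2.46-fold higher in tolerized cells at rest (log2FC 1.30, SE 0.26, adjusted p = 0.00195), 2.35-fold after peptide (1.23, SE 0.20, adjusted p = 0.000108) and 3.06-fold after PI (1.61, SE 0.19, adjusted p = 5.17e-06). It was the only member higher in tolerized cells by a passing test in all 3 conditions.

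**Figure D4:**
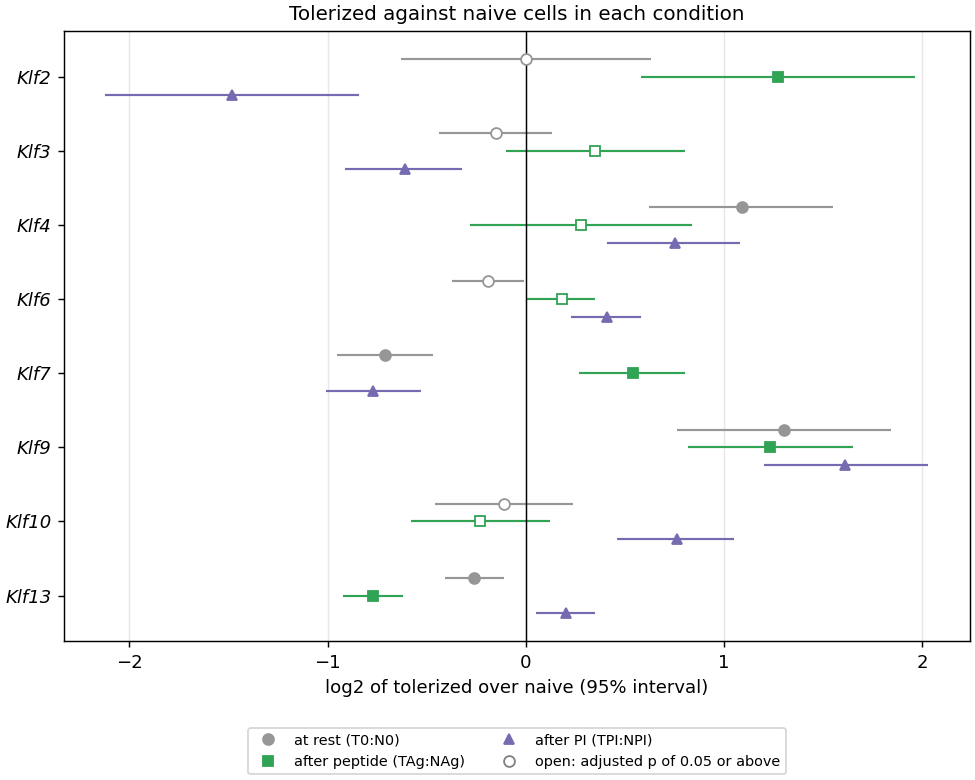
Log2 ratio of tolerized over naive cells for the 8 KLF genes at rest (circles), after peptide (squares) and after PI (triangles), with 95% intervals and open symbols where the adjusted p was 0.05 or above. Klf9 lies above 0 in all 3 conditions (1.30, 1.23 and 1.61), while Klf2 lies at 0.00, 1.27 and −1.48.

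The differences between tolerized and naive cells stood beside higher myeloid marker sums in the tolerized groups, whose ranges did not overlap those of the naive groups in any condition, and beside erythroid marker sums that differed in part. The erythroid sums were 103 to 290 in N0, and 2380, 284 and 327 in T0 replicates 1, 2 and 3, so that these ranges overlapped. After peptide 141 to 405 in NAg overlapped 174 to 1486 in TAg. The ranges lay apart only after PI, at 25 to 85 in NPI and 241 to 414 in TPI. Without scores of these markers in the model, 4 members passed at rest with edgeR and 4 with DESeq2. When scores of both marker lists were added to edgeR's model, 0 of 8 passed at rest by its quasi-likelihood test, with 1 at an unadjusted p under 0.05. Because the myeloid sums separate the cell states, the scores and the cell state cannot be told apart in that fit, and the SE of the 8 members at rest was 0.07 to 0.29 without the scores and 0.21 to 0.99 with them. The log2FC at rest was 0.97 with the scores for Klf4 (1.09 without them, adjusted p = 0.817 with them), −1.12 for Klf7 (−0.71, adjusted p = 0.362), −0.28 for Klf13 (−0.26, adjusted p = 0.856) and 0.69 for Klf9 (1.30, adjusted p = 0.864). After peptide Klf13 still passed at −0.78 (−0.77 without the scores, adjusted p = 0.000707 with them). The calls lost there stood at 1.02 for Klf2 (1.27, adjusted p = 0.39), 0.85 for Klf9 (1.23, adjusted p = 0.138) and 0.28 for Klf7 (0.54, adjusted p = 0.473). After PI Klf3, Klf7 and Klf9 passed with the scores. The calls lost after PI stood at −1.72 for Klf2 (−1.48, adjusted p = 0.112), 0.71 for Klf4 (0.75, adjusted p = 0.285), 0.42 for Klf6 (0.41, adjusted p = 0.0925), 0.60 for Klf10 (0.76, adjusted p = 0.227) and 0.21 for Klf13 (0.20, adjusted p = 0.372). The responses to peptide kept the 5 calls in naive and 6 in tolerized cells with the scores in the model, and those to PI lost only Klf3 in each cell state.

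The Klf2 target S1pr1 and 4 related homing and survival genes were read beside Klf2. S1pr1 lets T cells leave lymphoid organs, Ccr7 guides them into lymphoid tissue, Itgb7 directs them to the gut, S1pr4 is a further sphingosine 1-phosphate receptor and Il7r is the receptor for the survival cytokine IL-7. After peptide 5 of 5 were lower in naive and in tolerized cells, beside 33.4% and 29.8% of all tested genes. The log2FC of S1pr1 was −4.10 (SE 0.13, adjusted p = 2.09e-16) and −2.89 (SE 0.12, adjusted p = 3.06e-14). After PI, 4 of 5 were lower and 1, Ccr7, was higher, by a log2FC of 1.61 in naive and 1.85 in tolerized cells. There 32.7% of all tested genes were lower and 28.6% higher in naive cells, and 36.3% and 32.0% in tolerized cells.

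Between the cell states the homing genes stood as follows. After peptide 5 of 5 were higher in tolerized cells, where 20.9% of all tested genes were higher. Their log2FC ran from 0.39 (Ccr7) to 1.07 (S1pr1), beside 1.27 for Klf2. After PI 2 of 5 were lower, where 19.7% of all tested genes were lower. These were S1pr1 at −1.57 (SE 0.11, adjusted p = 2.21e-09) and Ccr7 at −0.40 (SE 0.10, adjusted p = 0.00262), beside −1.48 for Klf2. Itgb7 (−0.10), S1pr4 (−0.31) and Il7r (0.32) did not pass. At rest S1pr1 (−0.14), Itgb7 (0.07) and S1pr4 (0.12) did not pass, Il7r was higher (0.51) and Ccr7 lower (−0.63). Within naive cells PI raised Klf2 and lowered Itgb7 (−1.09), S1pr4 (−1.23), Il7r (−1.13) and S1pr1 (−0.32), so these genes and Klf2 moved in opposite directions there.

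**Figure D5:**
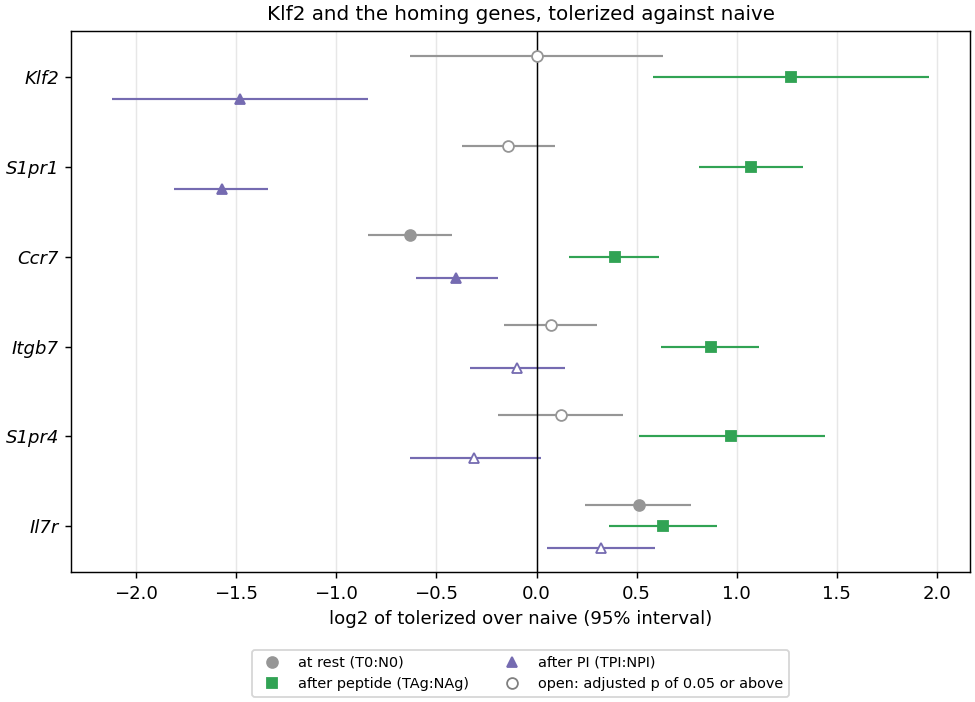
Log2 ratio of tolerized over naive cells for Klf2 and 5 homing genes at rest, after peptide and after PI, with 95% intervals and open symbols where the adjusted p was 0.05 or above. After peptide Klf2 and all 5 genes lie above 0, and after PI Klf2, S1pr1 and Ccr7 lie below it with filled symbols.

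A list of 20 upstream regulators and cofactors of the family was read in the same way, and its values are log2FC in naive and then tolerized cells. Foxo1, which activates Klf2 in resting T cells, fell after peptide by a log2FC of −0.92 in naive (adjusted p = 1.56e-09) and −1.74 in tolerized cells (adjusted p = 2.31e-14), and it rose with PI by 0.55 and 0.61. It was lower in TAg than NAg (−0.96, adjusted p = 1.65e-08), where Klf2 was higher. Mef2d, of the MEF2 family that activates Klf2, rose with PI by 1.43 and 1.25. Wwp1, a ubiquitin ligase of Klf2 protein, was lower after peptide, with log2FC of −1.42 and −1.26. Smurf1, another ubiquitin ligase, was lower after peptide (−1.22 and −0.78) and higher with PI (0.25 and 0.49), and the ubiquitin ligase subunit Fbxw7 was higher in all 4 responses (0.86 and 0.67 with peptide, 0.19 and 0.20 with PI). Of the MEK5 and ERK5 kinases, which act upstream of MEF2 factors, Map2k5 was lower in all 4 (−0.91 and −0.54 with peptide, −0.49 and −0.96 with PI), and Mapk7 was higher after peptide (0.40 and 0.26) and did not pass with PI (−0.17 and 0.13). Mef2a rose with PI by 0.55 and 0.81. Nr3c1, the glucocorticoid receptor upstream of Klf9, was lower after peptide, with log2FC of −1.08 and −0.38, where Klf9 rose. With PI, where Klf9 rose too, the mean normalized count of Nr3c1 was 3856 in NPI against 3414 in N0, and 3783 in TPI against 2361 in T0. Ctbp1, the partner of Klf3, rose after peptide by 0.19 and 0.57, and Ctbp2 did not pass there (0.52 and −0.27). The corepressors Sin3a and Sin3b, which bind Klf9, Klf10 and Klf13, did not pass after peptide in either cell state (−0.04 to 0.17), and with PI Sin3b was lower (−0.55 and −0.31). Among the acetyltransferases, Kat2b (−2.66 and −1.78), Ep300 (−1.36 and −0.80) and Crebbp (−0.26 and −0.31) were lower after peptide. Of the deacetylases, Hdac1 was lower (−0.85 and −0.60) and Hdac2 (1.37 and 1.24) and Hdac3 (0.52 and 0.55) were higher after peptide, and Hdac1 rose with PI by 1.03 and 0.81. Over the whole list 6 were higher and 10 lower in NAg:N0, 5 and 10 in TAg:T0, 8 and 6 in NPI:N0, and 9 and 8 in TPI:T0. Of all tested genes, 32.1% were higher and 33.4% lower in NAg:N0, and 29.9% and 29.8% in TAg:T0. With PI these shares were 28.6% and 32.7% in NPI:N0, and 32.0% and 36.3% in TPI:T0.

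Of the 18 other KLF and Sp genes, 13 were tested. Klf16, a repressor, rose in all 4 responses, by 2.61 (SE 0.12, adjusted p = 1.79e-14) and 2.32 with peptide and by 1.75 and 2.32 with PI in naive and tolerized cells. Klf11, related to Klf10, was lower in tolerized cells at rest (log2FC −1.0) and after PI (−0.88, adjusted p = 0.00076), and it rose with PI by 1.0 and 1.12. Sp3 had log2FC of −1.37 in naive and −0.62 in tolerized cells after peptide. Sp6 was lower in tolerized cells at rest, with mean counts of 179 in N0 and 21.1 in T0 (log2FC −3.07, SE 0.21, adjusted p = 3.84e-09), and also after PI (−2.72) and peptide (−1.09), but it overlaps Gm11532 on the opposite strand, so its counts are uncertain. It fell after peptide in both cell states, by 3.56 and 1.58 on the log2 scale. Only 9 to 15 raw reads were left in each NAg library and 4 to 9 in each TAg library, so its values after peptide rest on few reads. Klf8, a repressor, was lower after peptide (−1.78 and −1.03) and higher in TAg than NAg (1.09, adjusted p = 0.00844). Sp2 was lower after peptide (−0.43 and −0.31) and higher with PI (0.73 and 1.05), Sp4 was lower in TAg than NAg (−1.02, adjusted p = 4.91e-09), and Sp1 had log2FC between −0.20 and 0.23 in the 4 responses and the 3 comparisons of cell states. In NAg:N0 2 of the 13 were higher and 4 lower, beside 32.1% and 33.4% of all tested genes. In NPI:N0 6 were higher and 1 lower, beside 28.6% and 32.7%, and in T0:N0 1 and 5, beside 8.42% and 12%.

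Over the 18 libraries the log2 CPM values of the members fell into patterns that are given here as description, since all libraries share the same groups. Klf6 correlated with Klf4 (Pearson r = 0.97) and with Klf10 (0.97), and Klf4 with Klf10 (0.94). Klf7 correlated with Klf2 (0.90) and Klf3 (0.90), and Klf9 had its lowest value with Klf3 (−0.51). Among all tested genes with an average count of at least 50 in a group, the pattern closest to Klf2 was that of Tspyl1 (r = 0.986), to Klf3 Emp3 (0.994), to Klf4 Plau, which encodes urokinase (0.981), and to Klf7 Megf9 (0.987). The closest to Klf9 was Eea1 (0.992), with Icos, the costimulatory receptor of activated T cells, at 0.985, and the closest to Klf10 was Sqstm1 (0.991). The closest to Klf13 was Foxo1 (0.987), and to Klf6 H2-Q10 (0.994), one of a family of near-identical class I genes whose counts are uncertain.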

How the data were processed

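RNA was extracted from CD4+ T cells enriched from spleen, depleted of ribosomal RNA and sequenced as paired-end reads in 18 libraries, 3 per group. Per the submitters' processing notes and the methods, the authors aligned reads to mm9 with TopHat2 2.1.1, counted them per Ensembl gene with HTSeq 0.9.1, and used DESeq2 1.18 and edgeR 3.24 for their own comparisons. The deposited values are raw read counts per gene, without normalization, and how strand was handled is not given in the sources used here. Groups were taken from the sample labels, and no library pair held identical values.

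The counts were analyzed with R 4.3.3 and edgeR 4.0.16. Genes were kept if any group had a mean of 3 or more normalized counts, sizes were scaled by TMM, and 1 model with 6 group means was fitted to all libraries. P-values are from edgeR's quasi-likelihood test (robust option), adjusted by Benjamini-Hochberg over 17240 genes, which every adjusted p refers to unless DESeq2 is named. RPKM used the union of exons in the NCBIM37 annotation and TMM-scaled sizes. Equal depth was not imposed. Self-test data for NAg:N0 on 17240 genes gave back 71 of 100 genes changed by a log2 fold of 1 and 93 of 100 changed by 2, with 9 false calls.

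The members and gene lists were chosen with earlier results of these data known. Named were all 8 members, other KLF and Sp genes with an average count of at least 50 in a group, some genes of the Klf2 target list (of which 1 is not reported here, so that 5 are counted) and of the regulator list, whose counts cover the whole list, and the 3 genes with the highest correlation to each member, of which the first is given, with Icos and no others besides. Alternatives were DESeq2 1.42.0, its size factors, no filter, only the groups compared, the replicate number as a block, marker scores or Y-linked reads as covariates, a fold of at least 2 with an average count above 50, the longest transcript as length, and each library left out. Same-numbered libraries did not deviate together (45 pairs, r −0.23 to 0.14, median −0.01), so the numbers were not taken as pairs. The epigenomic data of the study were not analysed here.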

Additional observations from a re-analysis of the deposited data

Results flagged for a closer look

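The interaction test, which compares the response in tolerized cells with that in naive cells, singled out 7 results. After peptide the difference in log2 fold change was 0.37 for Klf6 (adjusted p = 0.0323), 1.25 for Klf7 (adjusted p = 2.12e-05) and −0.51 for Klf13 (adjusted p = 0.000797). After PI it was −1.48 for Klf2 (adjusted p = 0.0225), 0.60 for Klf6 (adjusted p = 0.000819), 0.87 for Klf10 (adjusted p = 0.00832) and 0.46 for Klf13 (adjusted p = 0.00209). All are from edgeR's quasi-likelihood test. Over all tested genes 14.6% were higher and 7.09% lower in the peptide interaction, and 12.7% and 7.52% in the PI interaction. With 12 libraries left out in turn, the Klf6 peptide call passed in 7 fits and the Klf2 PI call in 9. With the marker scores, the Klf6 peptide call (adjusted p = 0.128) and the PI calls of Klf2 (adjusted p = 0.204) and Klf10 (adjusted p = 0.0515) were lost.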

How the results depend on the processing

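Of 504 log2 fold changes of members recomputed under 7 alternatives, 464 kept their direction and their side of the threshold, 22 no longer passed, 8 newly passed and 10 turned in sign, and of 528 with a library left out these numbers were 474, 16, 15 and 23. The values that turned had not passed before. They were, for Klf2 in T0:N0, 0.01 with DESeq2, 0.01 with its size factors, 0.06 with only the groups compared and 0.24 with the Y-linked term, and for Klf7 in TPI:T0, 0.02 with DESeq2, 0.02 with its size factors and 0.40 with the marker scores. With those scores Klf3 was at −0.09 in TAg:NAg, Klf9 at 0.15 in the peptide interaction and Klf7 at 0.15 in the PI interaction. With a library left out, values that crossed 0 ranged from −0.12 to 0.13 for Klf7 in NPI:N0, −0.11 to 0.02 for Klf7 in TPI:T0, −0.18 to 0.06 for Klf7 in the PI interaction, −0.23 to 0.11 for Klf2 in T0:N0, −0.15 to 0.20 for Klf2 in TPI:T0, −0.28 to 0.11 for Klf10 in T0:N0, −0.33 to 0.06 for Klf10 in the peptide interaction and −0.25 to 0.23 for Klf9 there.

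The number of members passing in the peptide interaction was 5 with DESeq2 against 3, with Klf2 (1.23, adjusted p = 0.0314) and Klf4 (−0.85, adjusted p = 0.01) added, and DESeq2 added Klf3 to the PI interaction (−0.45, adjusted p = 0.0341). With the marker scores in edgeR's model it was 0 of 4 in T0:N0 (1 at an unadjusted p under 0.05), 1 of 4 in TAg:NAg, 3 of 8 in TPI:NPI and 2 of 4 in the PI interaction. DESeq2, fitted only without the scores, gave 4 in T0:N0. The part of the other cells, and the cause of the other changes, was not tested. With a fold of at least 2 and an average count above 50 the number of members passing was 2 in each of T0:N0, TAg:NAg and TPI:NPI. Shares of all tested genes passing are given for the main fit only. The counts under the alternatives therefore have no such share beside them. The replicate block, for numbers that did not pair the libraries, added Klf2 to the peptide interaction (1.34, adjusted p = 0.0427), so that 4 passed, and 2 libraries were closest to their own number. Klf6 in NAg:N0 passed without the filter (adjusted p = 0.0463), with the Y-linked term (adjusted p = 0.0485) and with only the groups compared (adjusted p = 0.0214), where Klf13 in T0:N0 no longer passed (−0.18, adjusted p = 0.159). Klf6 in the peptide interaction no longer passed with DESeq2's size factors (adjusted p = 0.0511), the Y-linked term (adjusted p = 0.0516) or the marker scores (adjusted p = 0.128). Of the members Klf2 had the widest SE in each comparison, 0.29 to 0.43.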
